A study of Mus musculus with 4 samples.

Results

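Interferon-response macrophages made up 1201 of the 36794 cells (3.26%) in 4 single-cell RNA sequencing libraries of mouse bone marrow (BM) macrophages. A cell was a barcode with at least 200 genes, at least 1000 unique molecular identifiers (UMIs, each of which marks 1 captured mRNA molecule) and at most 10% mitochondrial UMIs. It was counted as an interferon-response cell when at least 3 of the 7 genes Ifit1, Ifit2, Ifit3, Rsad2, Cxcl10, Cmpk2 and Mx1 had a UMI and when their summed UMIs reached 5 per 10000 UMIs of the cell. The cells were thus selected on the measured UMIs of these 7 genes, which are described without a test, apart from Cxcl10 under a rule that leaves it out.

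The BM macrophages came from male C57BL/6J mice of 4 weeks, were grown for 4 days with M-CSF, and were then kept in medium with 0.25% serum. Efferocytic BM macrophages were F4/80+CFSE+ cells sorted after 16–18 h of co-culture with RM1 cells that had been killed by 30 min of UV light and labeled with the dye CFSE. RM1 is a prostate cancer cell line driven by Ras and Myc from the same mouse strain. The study took macrophages that carry the dye as those that had engulfed a cancer cell. Non-efferocytic BM macrophages were sorted as F4/80+ without the dye, and the study's scheme shows them cultured without RM1 cells. Each of 2 experiments gave 1 library of each group, and BM macrophages were taken from at least 3 mice per group, while the number of mice behind a library is not given in the sources used here. Co-culture, dye and efferocytosis therefore cannot be told apart. The p-values cover the spread between libraries only, and with so few libraries edgeR takes much of that spread from all genes together. A small SE or p-value therefore does not show that a gene changed by a like amount in both experiments.

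Type I interferons bind a receptor made of IFNAR1 and IFNAR2, whose kinases JAK1 and TYK2 phosphorylate transcription factors such as STAT2. A complex with IRF9 enters the nucleus and binds interferon-stimulated response elements, in which GAAA repeats stand in front of antiviral genes. Macrophages are known both to make interferon beta after sensing nucleic acids and to answer to the interferon of their neighbours. The 7 genes are induced in that answer, and whether their products are functional in this mouse strain was not measured here. Of the related IFIT1, IFIT2 and IFIT3, IFIT1 binds foreign RNA. Viperin (Rsad2) makes a chain-terminating nucleotide and CMPK2 is a mitochondrial nucleotide kinase. Functional MX1 is an antiviral GTPase, and CXCL10 attracts T cells.

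The cells of a library held between 101216659 and 155224183 UMIs, of which the interferon-response cells held between 1314986 and 6740101. The median interferon-response cell had 11333 UMIs in the non-efferocytic and 16288 in the efferocytic library of Experiment 1, beside 11136 and 17228 in the remaining cells. In Experiment 2 it had 10444 and 16670.5, beside 9566 and 17489. The libraries of Experiment 2 shared 118 cell barcodes, where 16.6 would be shared if barcodes were drawn evenly, and the other pairs of libraries shared 14 to 23. Of the interferon-response cells, 7 had a shared barcode. The free RNA of Experiment 2, read from barcodes of 10 to 100 UMIs, held 7.17 and 8.85 UMIs of the 7 genes per 10000, against 1.503 and 1.029 in Experiment 1. Below, the values of the 4 libraries are given in the order non-efferocytic and efferocytic of Experiment 1, then non-efferocytic and efferocytic of Experiment 2.

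By the rule above, interferon-response cells were a smaller share of the efferocytic than of the non-efferocytic library in both experiments. In Experiment 1 they were 538 of 8280 non-efferocytic cells (6.498%, exact 95% binomial interval 5.98% to 7.05%) and 307 of 6695 efferocytic cells (4.59%, 4.10% to 5.11%). In Experiment 2 they were 290 of 13411 non-efferocytic cells (2.16%, 1.92% to 2.42%) and 66 of 8408 efferocytic cells (0.785%, 0.608% to 0.998%). The experiments thus differed more than the groups did, and the intervals, which cover counting error only, did not overlap within either experiment. With 2 libraries against 2, the smallest p that an exact permutation test can give is 0.333, and since measured levels chose the cells, the shares are given as a description and no test of the group difference was run.

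The share depended on the depth of a cell and on the threshold, and the order of the groups in Experiment 1 depended on the rule. With at least 3 of the 7 genes detected and no minimum level, chosen after seeing the data, 10.7% of non-efferocytic and 13.6% of efferocytic cells of Experiment 1 qualified (10.0% to 11.3% and 12.8% to 14.5%), so the order was reversed. In Experiment 2 these shares were 3.50% and 2.997%, with overlapping intervals. The median efferocytic cell also held more UMIs, as given above. Among the 7181, 6151, 10007 and 7903 cells with at least 5000 UMIs, the shares were 6.95%, 4.93%, 2.66% and 0.835%. With these cells thinned to 5000 UMIs before the rule was applied, they were 5.71%, 4.02%, 2.38% and 0.709%, and at that depth 3 detected genes already meet the minimum level, so these are also the shares by detection alone. At 10 UMIs of the 7 genes per 10000 they were 3.79%, 1.85%, 1.42% and 0.345%. At 2.5 per 10000 they were 9.14%, 8.80%, 2.98% and 1.71%, and the intervals of the groups then overlapped in Experiment 1 (8.53% to 9.78% and 8.13% to 9.50%). Cells within 5 to 10 per 10000 were 2.81% and 2.78% of the cells of Experiment 1 and 0.756% and 0.442% of those of Experiment 2, after all higher cells were left out. The plot of shares by library shows the shares as chosen, after thinning and at both other thresholds side by side.

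**Figure D1:**
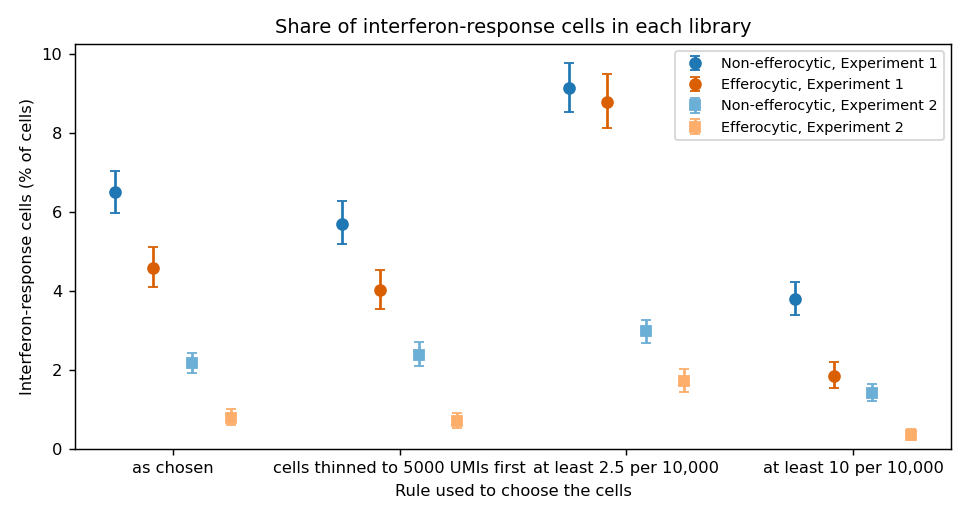
Share of interferon-response cells in each library (percent of cells) as chosen, among cells of at least 5000 UMIs thinned to 5000, and at 2.5 or 10 UMIs of the 7 genes per 10000; bars are exact 95% binomial intervals. The non-efferocytic point lies above the efferocytic point of its experiment under each of these 4 rules, by the least at 2.5 per 10000 in Experiment 1 (9.14% and 8.80%).

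Cells lay on both sides of the threshold without a gap, and whether a separate class lies further above it was not tested. The median cell had 11.6, 8.70, 16.3 and 8.94 UMIs of the 7 genes per 10000, and the highest reached 326, 123, 195 and 256. Cells just above the threshold (5 to 6 per 10000) numbered 64, 67, 33 and 18, and cells just below it (4 to 5, with 3 genes detected) numbered 71, 66, 28 and 26. The levels of Isg15, a gene outside the rule, were 269, 216, 284 and 130 CPM (UMIs of the gene per 1000000 UMIs) just above it and 182, 226, 218 and 152 CPM just below it. Between 57.5% and 77.2% of the remaining cells of a library had no UMI of the 7 genes. The interferon-response cells held 74.8%, 48.3%, 67.1% and 39.2% of the UMIs of the 7 genes found in all cells of their library. In the efferocytic library of Experiment 2, 829 of 2623 such UMIs (31.6%) were in 1 cell, against 1.75% to 4.47% in the highest cell of the other libraries.

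The letters GAAA, then 2 bases of any kind, then GAAA again, a spelling of the core of the interferon-stimulated response element, were looked for on both strands of the RefSeq promoter windows of GRCm38.p6, which run from 250 bases before to 50 bases after a gene's start. This motif was in 1131 of all 32851 windows (3.44%), and 3.99% of genes had it in a window. Of the 7 genes, 6 had a window and 4 held the motif (Ifit1, Ifit3, Rsad2 and Cxcl10). Of the matched genes of the lists used below, it was in 10 of 11 GTPases, 7 of 13 interferon ligands and 15 of 33 antiviral effectors. It was in 3 of 10 sensors, 4 of 14 MHC class I genes, 1 of 8 feedback inhibitors and 1 of 15 receptors and transducers. It was in 1 of 11 efferocytosis and lipid genes and 1 of 19 glycolysis and hypoxia genes. Chemokines (0 of 9), MHC class II genes (0 of 4) and inflammatory genes (0 of 9) lacked it. The stretches around the motif are shown for Ifit1, Ifit3, Rsad2, Cxcl10, Isg15 and Gbp5, since these genes carry the levels described below. Capitals mark the motif, each is read 5′ to 3′ on the strand of its gene, and TTTC, 2 bases and TTTC again are the motif on the other strand.
Ifit1 (chr19:34640773-34640825, plus strand, 116 to 64 bases before the start): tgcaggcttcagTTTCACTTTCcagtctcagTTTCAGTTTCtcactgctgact
Ifit3 (chr19:34583361-34583428, plus strand, 168 to 101 bases before the start): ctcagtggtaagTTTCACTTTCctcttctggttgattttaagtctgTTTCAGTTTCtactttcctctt
Rsad2 (chr12:26456551-26456584, minus strand, 132 to 99 bases before the start): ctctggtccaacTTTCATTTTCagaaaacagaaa
Cxcl10 (chr5:92349081-92349114, minus strand, 225 to 192 bases before the start): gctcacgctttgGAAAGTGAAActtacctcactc
Isg15 (chr4:156200863-156200908, minus strand, 90 to 45 bases before the start): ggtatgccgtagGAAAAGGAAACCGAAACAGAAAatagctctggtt
Gbp5 (chr3:142496757-142496790, plus strand, 177 to 144 bases before the start): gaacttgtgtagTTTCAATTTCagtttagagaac

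Isg15 held 3 overlapping matches, and Ifit1 and Ifit3 held 2 each. A match describes these letters and is not a measured binding site. Distances count from the start used for the RefSeq window, which can differ from the gene coordinates given below, as for Ifit1.

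The 7 genes are given first, since they chose the cells. Ifit1 (ENSMUSG00000034459, chr19:34640871-34650009, plus strand), Ifit2 (chr19:34550694-34576419) and Ifit3 (chr19:34583531-34588731) lie side by side, and Cmpk2 and Rsad2 are neighbours on chromosome 12 (chr12:26469204-26479837 and chr12:26442746-26456452). In the interferon-response cells Ifit1 was at 382, 244, 527 and 422 CPM, and it had a UMI in 83.5%, 86.0%, 89.0% and 87.9% of them. In the remaining cells it was at 8.35, 12.1, 5.43 and 4.99 CPM. Rsad2 was at 578, 333, 725 and 669 CPM in the interferon-response cells and at 8.92 to 17.2 CPM in the remaining cells. Mx1 had a UMI in 48.9%, 37.8%, 54.5% and 31.8% of the interferon-response cells.

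Cxcl10 was the most uneven of the 7. It had a UMI in 120 of 538, 16 of 307, 109 of 290 and 2 of 66 interferon-response cells (22.3%, 5.21%, 37.6% and 3.03%), so the non-efferocytic libraries held it in more of these cells than the efferocytic ones. Its level was 208, 12.2, 404 and 140 CPM, and in the efferocytic library of Experiment 2 1 cell held 99.5% of its 184 UMIs. Without the highest cell of each library the levels were 194, 9.78, 363 and 0.76 CPM. The share with Cxcl10 also went with the level of the 7 genes. In the non-efferocytic library of Experiment 1 it was 8.04% at 5 to 10 UMIs per 10000, 11.8% at 10 to 30 and 66.4% at 30 and over. In the efferocytic library of that experiment it was 1.09%, 5.88% and 36.4%. Cxcl10 itself counts in that level, so this is a description.

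With Cxcl10 left out of the rule, it could be tested as a gene that the rule did not use. It was then 8.00 ± 0.29 higher on the log2 scale (fold change ± SE, edgeR adjusted p = 1.29e-07) in the interferon-response cells than in the remaining cells. It was 2.78 ± 0.30 lower (log2 −2.78, edgeR adjusted p = 1.13e-08) in efferocytic than in non-efferocytic interferon-response cells. Whether the difference from the remaining cells itself differed between groups did not pass the test (log2 0.44 ± 0.50, edgeR adjusted p = 0.948). By library, the log2 ratios under the full rule were 8.05, 6.51, 8.14 and 9.59. In the last library 1 cell held 183 of the 184 UMIs of the interferon-response cells, which were at 0.76 CPM without it. The estimate and its sign thus rest on that cell, and the result does not show that the groups were alike. In the remaining cells Cxcl10 was at 0.783, 0.134, 1.44 and 0.182 CPM, while the free RNA held 17.5, 17.0, 232 and 318 CPM of it. The part of free RNA in the Cxcl10 counts of Experiment 2 was not tested.

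**Figure D2:**
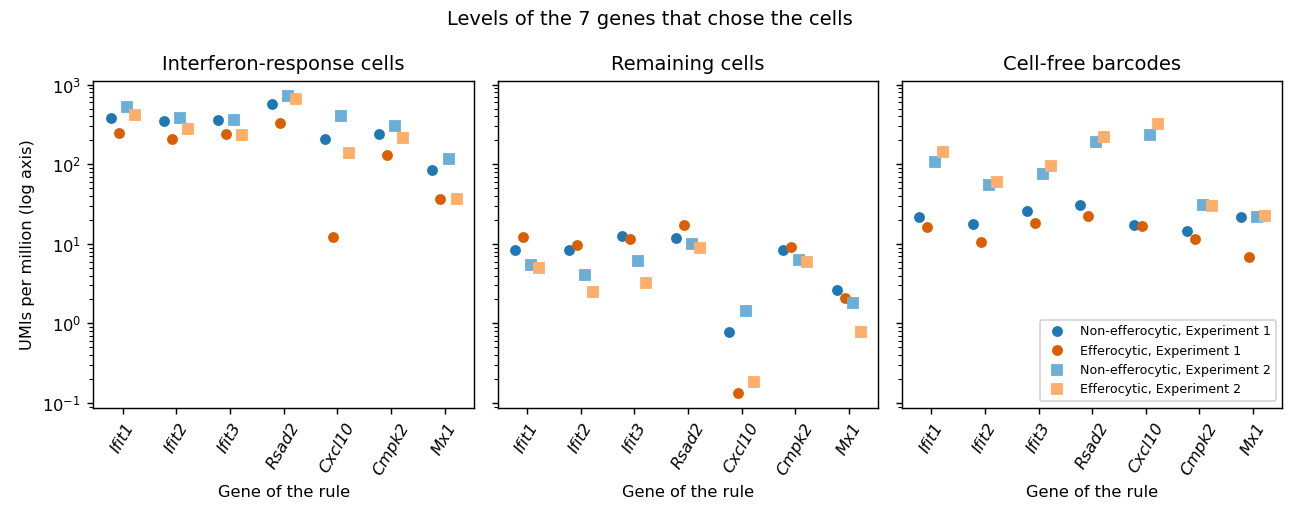
Levels of the 7 genes of the rule (CPM, log axis) in interferon-response cells, in the remaining cells and in barcodes of 10 to 100 UMIs that stand for free RNA, with 1 point per library. Cxcl10 spans 12.2 to 404 CPM between the libraries in interferon-response cells, and the free RNA of each library holds more of all 7 genes than its remaining cells do.

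The cells held the markers of macrophages. All 1201 had at least 3 of 10 macrophage markers (such as Adgre1, which encodes F4/80, Csf1r and C1qa), against 98.5% to 99.5% of the remaining cells. The summed level of that list was 39889, 32326, 39281 and 24210 CPM in the interferon-response cells and 41507, 33105, 35503 and 25066 CPM in the remaining cells. Of 9 neutrophil markers, at least 3 were found in 6, 0, 3 and 0 interferon-response cells, and the summed level of the list was 2075 CPM in the first library and 55.5 CPM or less in the other 3. Of the 5 plasmacytoid dendritic cell markers, at least 3 were found in 2, 1, 1 and 0 cells, and Bst2, which interferon also induces, gave most of that list's level. Cycling markers (at least 3 of 10) were found in 11.9%, 13.03%, 9.66% and 13.6% of the interferon-response cells and in 9.96%, 9.14%, 10.4% and 13.4% of the remaining cells. At least 3 of 5 monocyte markers were found in 5, 1, 2 and 0 interferon-response cells, and at least 3 of 5 fibroblast markers in 2, 0, 2 and 1. The summed level of the fibroblast list was 46.0, 1.57, 176 and 101 CPM in the interferon-response cells and 151, 48.2, 118 and 51.1 CPM in the remaining cells, and its part in the comparisons below was not tested. Markers of dendritic, epithelial, T and NK, and B cells reached 3 in none of the 1201 cells. The scores for doublets were lower in interferon-response than in remaining cells, with medians of 0.0484 to 0.0822 and 0.0827 to 0.102.

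To see which other genes go with the 7, UMI counts were summed per library over the interferon-response cells and over the remaining cells, and 12467 genes outside the rule were tested with the library as a block. Of these, 759 passed (6.09%), 549 higher (4.4%) and 210 lower (1.68%) in the interferon-response cells, and the median over all tested genes was log2 −0.05. Since the 7 genes are themselves targets of interferon and mark the cells that hold them, the lists below describe what goes with them in the same cells and are not independent of the choice. Each list was taken from textbook roles, with earlier results of these data known.

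The antiviral effectors were higher as a whole list. All 40 that were tested passed, with a median log2 fold change of 2.19. Isg15, a ubiquitin-like protein that is attached to viral and host proteins, was at 526, 403, 641 and 341 CPM in the interferon-response cells and at 36.2, 45.1, 21.1 and 14.6 CPM in the remaining cells. The groups of 4 values did not overlap, and the log2 fold change was 4.09 ± 0.24 (17.0-fold, edgeR adjusted p = 1.2e-06). The steepest of the list was Ifit1bl1, a relative of Ifit1, at 89.8, 8.73, 119 and 4.56 CPM against 0.065 to 0.677 CPM (log2 7.12 ± 0.27, edgeR adjusted p = 1.06e-07). Its level thus differed by a wide margin between the groups of libraries. Ifit3b (log2 5.03), Slfn1 of the Schlafen family (4.46) and Ifi44 (4.25) followed. Smaller changes, chosen after their values were seen, were those of Oasl2 (2.51 ± 0.17), the RNA-activated kinase PKR (Eif2ak2, 1.75 ± 0.09), tetherin, which holds budding viruses back (Bst2, 1.21 ± 0.15), and Ifitm3, which blocks the entry of viruses (1.03 ± 0.09).

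Among the ligands, interferon transcripts were close to absent. None of the 13 interferon genes had enough UMIs for the test. Ifnb1, which encodes interferon beta, had 6 UMIs in the non-efferocytic library of Experiment 1, all in 2 cells that were both interferon-response cells. It had 3 UMIs in 3 cells of the non-efferocytic library of Experiment 2, of which 1 was an interferon-response cell. It had 0 UMIs in both efferocytic libraries, which in their interferon-response cells allows up to 0.524 and 2.28 CPM. In the non-efferocytic interferon-response cells its levels were 0.89 and 0.291 CPM. In Experiment 1 this lay above the limit of the efferocytic library, with 5 of the 6 UMIs in 1 cell, and in Experiment 2 it lay below the limit, so that a difference was not detectable at that depth. Among the 12 other interferon genes, the libraries held 0, 1, 8 and 6 UMIs over all cells.

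Of 16 receptor and signal transducer genes, 6 were higher and none lower (median log2 0.18). Stat2, a factor that the receptor activates, was at 132, 97.8, 133 and 83.7 CPM against 22.5, 22.4, 17.6 and 15.6 CPM in the remaining cells (log2 2.49 ± 0.12, edgeR adjusted p = 3.4e-07), and its partner Irf9 stood at 0.70 ± 0.08. Irf7, the factor that drives the genes of interferon alpha, was at 373, 281, 426 and 178 CPM against 53.0, 75.2, 39.5 and 40.1 CPM (log2 2.57 ± 0.22, edgeR adjusted p = 1.8e-05). Irf1 (1.44 ± 0.10) and Jak2 (0.67 ± 0.12) also passed. The receptor subunits Ifnar1 (log2 −0.12 ± 0.09, edgeR adjusted p = 0.53) and Ifnar2 (0.11 ± 0.05, 0.331), the kinase Jak1 (0.04 ± 0.05, 0.76) and Irf3, the sensor-activated factor (−0.06 ± 0.08, 0.813), did not pass.

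The sensors of foreign nucleic acids were higher in 10 of 15 genes and lower in none (median log2 0.49). Ddx58, which encodes the cytosolic RNA helicase RIG-I, was at 148, 102, 161 and 94.3 CPM against 28.1, 23.9, 21.7 and 17.4 CPM (log2 2.44 ± 0.12). Ifih1, which encodes MDA5, and Dhx58, which encodes LGP2, stood at 2.38 ± 0.14 and 2.48 ± 0.14. Ifi204, of the family of interferon-induced DNA-binding proteins, stood at 2.51 ± 0.11. The DNA sensor cGAS (Mb21d1, 1.22 ± 0.12) and the endosomal RNA sensor Tlr3 (1.71 ± 0.19) were higher, while the adaptor Mavs (−0.12 ± 0.10, edgeR adjusted p = 0.595) and the kinase Tbk1 (0.21 ± 0.07, 0.138) did not pass.

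Of the feedback inhibitors, 3 of 8 were higher (median log2 0.30). Usp18, which removes ISG15 from proteins and blocks the interferon receptor, was at 84.9, 72.6, 102 and 97.3 CPM against 7.07, 9.85, 5.35 and 5.33 CPM. It thus lay at nearly the same level in the interferon-response cells of both groups (log2 3.66 ± 0.20 against the remaining cells, edgeR adjusted p = 5.26e-07). Socs1, an inhibitor of the JAK kinases, stood at 2.44 ± 0.47 (edgeR adjusted p = 0.0094) and rested on 3.04 to 20.6 CPM. It had a UMI in 58, 18, 48 and 4 interferon-response cells, in the last library 6.06% of them against 4.57% of the remaining cells. Adar, which edits double-stranded RNA, stood at 1.44 ± 0.11.

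The guanylate-binding proteins and immunity-related GTPases, which attack the vacuoles of microbes, were higher in 10 of 11 genes with the highest median of the lists (log2 2.92). Gbp5 was at 39.3, 7.86, 59.6 and 11.4 CPM against 2.11, 0.511, 1.59 and 0.403 CPM (log2 4.57 ± 0.23, edgeR adjusted p = 3.8e-07). In both kinds of cell the efferocytic libraries were the lower ones. Tgtp2 (4.72 ± 0.44), Ifi47 (3.58 ± 0.18) and Gbp2 (3.30 ± 0.20) were alike in direction. Iigp1, another such GTPase, which no list held, led the genes outside the lists at 6.23 ± 0.32.

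Of 16 genes of MHC class I and peptide loading, 15 were higher (median log2 0.67), led by Nlrc5 (1.71 ± 0.16), the master activator of class I genes, the peptide transporter Tap1 (1.69 ± 0.11), the immunoproteasome subunit Psmb9 (1.16 ± 0.10) and H2-T22 (0.97 ± 0.11). B2m, the shared light chain, stood at 0.34 ± 0.06. None of the 7 MHC class II genes passed in the fit over all 4 libraries (edgeR), with log2 fold changes of 0.03 ± 0.23 for Ciita and 0.23 ± 0.30 for Cd74, beside 5 of 7 higher in Experiment 1 alone, where 466 of all 12516 genes were higher (3.72%).

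Chemokines other than Cxcl10 were higher in 5 of 13 genes (median log2 0.45), and some of them rested on few cells. Ccl12, which attracts monocytes, was at 18.2, 5.41, 17.4 and 28.1 CPM against 0.467 to 1.23 CPM (log2 4.29 ± 0.39) and had a UMI in 49, 20, 35 and 10 interferon-response cells. Ccl5, which attracts T cells, stood at 3.81 ± 0.25, but 70.0%, 79.0%, 28.9% and 93.5% of its UMIs were in the highest cell of each library. Ccl8 (3.46 ± 0.50) had a UMI in 4, 3, 6 and 4 interferon-response cells. Ccl4, an attractant of lymphocytes and monocytes, was spread over 279, 206, 91 and 47 cells (log2 1.11 ± 0.10). Of the inflammatory list, 3 of 12 passed, Il10 (2.00 ± 0.35), Cd40 (1.54 ± 0.20) and Il18 (0.97 ± 0.11), all higher (median log2 0.35). Il10 had a UMI in 48, 15, 17 and 0 interferon-response cells. In the efferocytic library of Experiment 2, 52.8% of the Cd40 UMIs of these cells were in 1 cell, and 19.7% of them had a Cd40 UMI, against 16.8% of the remaining cells.

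Of 20 genes of glycolysis and the hypoxia response, 1 was lower, Pgam1 (log2 −0.30 ± 0.06), and none higher (median log2 −0.15), beside 1.68% lower and 4.4% higher among all genes tested. Of 15 genes of efferocytosis and lipid handling, 1 was higher, Axl, and 2 lower, Lpl and Trem2 (median log2 −0.14). Axl encodes a receptor for dying cells that is known to be induced by interferon, and it was at 39.6, 25.7, 40.4 and 17.5 CPM against 21.3, 15.0, 19.97 and 10.8 CPM (0.87 ± 0.09, edgeR adjusted p = 7.47e-05). Lpl, a lipase, and Trem2, a lipid receptor, stood at −0.31 ± 0.08 and −0.23 ± 0.05. The plot of gene lists by role shows these lists beside the antiviral ones.

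**Figure D3:**
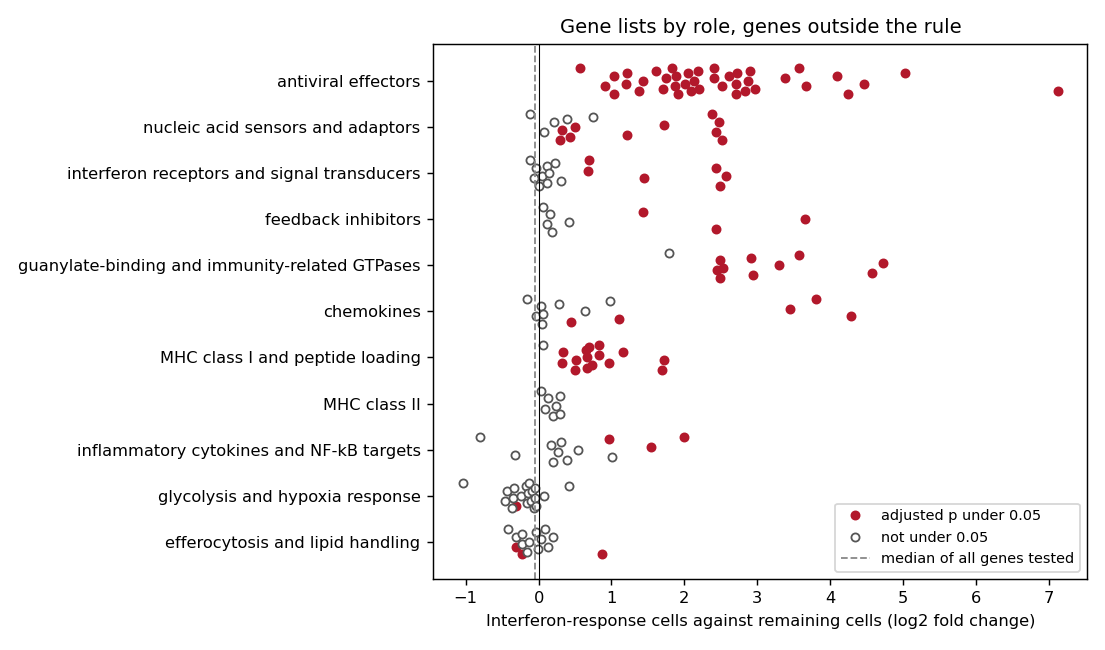
Log2 fold change of interferon-response against remaining cells for each tested gene of 11 lists by role (x axis), filled where the edgeR adjusted p is under 0.05, with the median of all genes (−0.05) as a dashed line; the vertical offset within a list carries no value. All 40 antiviral effectors are filled and right of 0, and the MHC class II, glycolysis and lipid lists lie around 0.

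Outside the lists, the 10 largest rises with at least 10 CPM and 1 direction in all libraries were Iigp1, 6 genes of the Ifi200 family of DNA-binding proteins (Ifi208, Ifi205, Ifi206, Ifi213, Ifi211 and Ifi209, with log2 3.13 to 5.48), Phf11a (3.39 ± 0.24), the helicase Ddx60 (2.72 ± 0.14) and AW112010 (2.84 ± 0.31). Genes of the Ifi200 family resemble each other, so reads may be split between them and single values are uncertain, as are those of the Ifit and Tgtp genes. The largest falls were genes of neutrophils, S100a9, S100a8, Camp, Ngp and Chil3 (log2 −2.34 to −4.21). S100a9 was at 671, 2.79, 18.3 and 1.52 CPM in the interferon-response cells against 1165, 384, 1285 and 283 CPM, and the neutrophil list above moved with it. With cells of at least 3 neutrophil markers left out, an alternative chosen after seeing the data, Ngp stood at 0.83 ± 0.29 and Chil3 at 0.80 ± 0.30, neither past the test (edgeR adjusted p = 0.135 and 0.161). The other falls were those of Tagln, Egr2, Cdkn1c, Plaur and Bhlhe40, of log2 −0.74 to −1.19.

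Over all cells, Isg15, Irf7 and Usp18 also followed the number of rule genes detected, from cells with none of the 7 upward. In cells thinned to 5000 UMIs, Isg15 in the non-efferocytic library of Experiment 1 was at 20.8 CPM with 0 of the 7 genes detected, 81.6 with 1, 179 with 2, 305 with 3, 404 with 4 and 827 with 5 or more. In the efferocytic library it was at 28.1, 92.4, 144, 279, 463 and 738 CPM. In the non-efferocytic library of Experiment 1, Irf7 went from 37.5 to 525 CPM, with 378 at 3 genes and 337 at 4, and Usp18 from 4.04 to 147 CPM. Adgre1 moved far less, from 560 with 0 of the 7 genes to 651 CPM with 5 or more in that library, from 407 to 547 in the efferocytic library of Experiment 1, and from 547 to 775 and 374 to 400 CPM in Experiment 2. In the efferocytic library of Experiment 2 the bins of 4 and of 5 or more held 8 and 12 cells, and Isg15 was at 75 and 717 CPM and Usp18 at 25 and 167 CPM in them, so that bin of 4 broke the order.

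**Figure D4:**
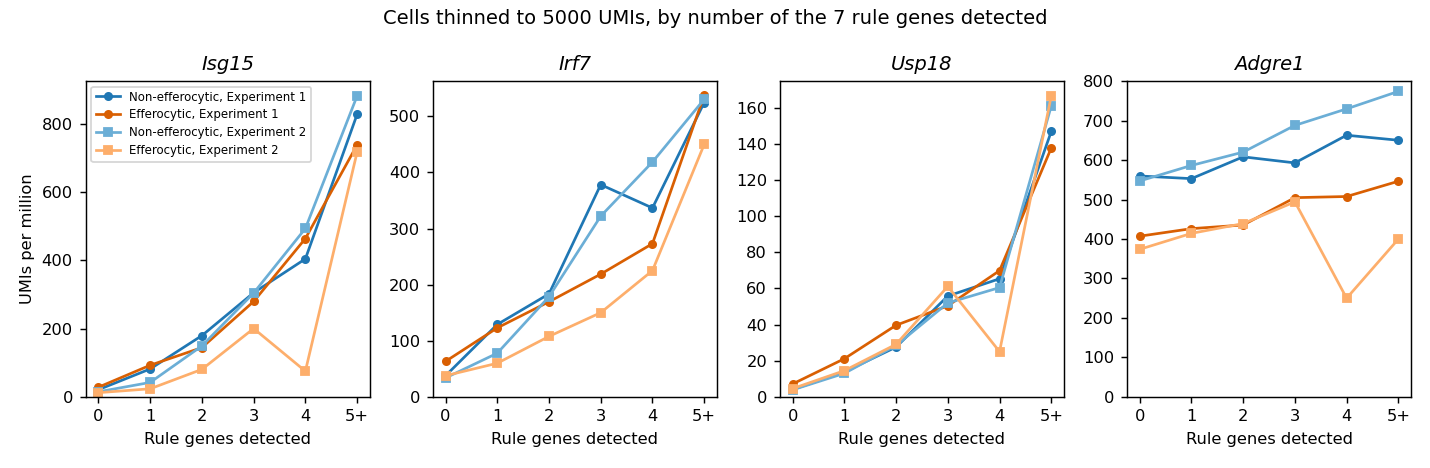
Levels of Isg15, Irf7, Usp18 and Adgre1 (CPM) in cells thinned to 5000 UMIs, by the number of the 7 rule genes detected, with 1 line per library. Isg15, Irf7 and Usp18 climb in each library except at single bins, among them the bin of 4 genes in the efferocytic library of Experiment 2 (8 cells), and Adgre1 rises by far less (547 to 775 CPM where it rises most).

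Efferocytic and non-efferocytic interferon-response cells were then compared, with the experiment as a block. Of 10017 genes, 1586 passed (15.8%), 741 higher (7.4%) and 845 lower (8.44%) in the efferocytic ones. The same comparison of the remaining cells, whose sums hold more UMIs, called 5193 of 13807 genes (37.6%), 2681 higher (19.4%) and 2512 lower (18.2%). Antiviral effectors were lower in 22 of 39 genes and higher in none (median log2 −0.52, against −0.02 for all genes), and GTPases were lower in 10 of 12 (median −1.09). Isg15 (log2 −0.65 ± 0.19, edgeR adjusted p = 0.0168) and Irf7 (−0.82 ± 0.20, 0.00444) were lower, and Gbp2 was lower by more (−1.81 ± 0.17). Usp18, at −0.16 ± 0.16, did not pass (0.566). MHC class I genes were lower in 9 of 16, sensors in 7 of 14 and transducers in 6 of 16, with none higher in these 3 lists. Falls in such lists were also found between the remaining cells, among them Gbp5 (log2 −1.90 ± 0.19), Gbp2 (−1.11 ± 0.13), H2-Q7 (−1.79 ± 0.13) and Irf1 (−0.83 ± 0.17). In the remaining cells Irgm1 (0.31 ± 0.10) and Psme2 (0.43 ± 0.11) were higher in efferocytic libraries, and Ifi47 (−0.07 ± 0.10) did not pass.

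The level of the 7 genes themselves also differed between the libraries. Cells of 30 or more UMIs of the 7 genes per 10000 made up 22.1%, 7.17%, 33.8% and 12.1% of the interferon-response cells. Among cells of 5 to 10 per 10000 in both groups, chosen after seeing the data, 8 of 38 antiviral effectors and 4 of 9 GTPases were lower and none higher, where 359 of all 8912 genes tested there were lower (4.03%). In that range Isg15 stood at log2 −0.67, Irf7 at −0.67 and Usp18 at 0.43, with none of the 3 past the test. Isg15 was there at 306, 286, 442 and 171 CPM and Irf7 at 279, 247, 320 and 128 CPM in the order of libraries. Most of both falls thus came from Experiment 2, where 37 efferocytic cells lay in that range. With all 4 libraries and no experiment term, edgeR called 849 genes, and the number of calls also depended on the libraries kept. With 1 left out, in fits that also drop the experiment term, 277, 958, 445 and 0 genes passed in edgeR in the order of libraries, the last with 1922 at an unadjusted p below 0.05, and DESeq2 called 375 genes over all 4 libraries in place of 1586.

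Further gene lists also differed between efferocytic and non-efferocytic interferon-response cells. All 7 MHC class II genes were lower (median log2 −3.91). H2-Aa was at 91.7, 5.76, 113 and 0 CPM in the interferon-response cells, so that both efferocytic libraries lay below both others, and at 53.3, 3.78, 116 and 12.7 CPM in the remaining cells. Genes of glycolysis and the hypoxia response were higher in 13 of 17 and lower in 1 (median 1.11), among them Ldha, which makes lactate (1.22 ± 0.17). Of the efferocytosis and lipid list, 8 of 15 were higher and 2 lower (median 0.98). None of the genes of these 3 lists passed the edgeR test of whether the difference between interferon-response and remaining cells itself differed between groups. At an unadjusted p under 0.05 that test held 907 of all 13106 genes, and 52 passed after adjustment.

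The largest rises with at least 10 CPM and 1 direction in both experiments were those of Ccl7 (log2 3.44 ± 0.29), Cdkn1c, an inhibitor of the cell cycle (3.19 ± 0.25), Hyal1, Plpp3, Dhrs9, Npy, Qpct and Rhov. Cdkn1c was at 4.15, 29.5, 3.78 and 52.5 CPM in interferon-response and at 12.4, 46.1, 11.9 and 65.2 CPM in remaining cells, higher in the efferocytic library each time. The largest falls were S100a9, Camp, Ngp, Ly6c2, S100a8, Chil3, H2-Eb1 and H2-Aa. Of these, the neutrophil genes were lost or weaker without the cells of at least 3 neutrophil markers (S100a8 log2 0.02, S100a9 −1.52, Ngp −1.58 and Chil3 −0.24), while H2-Eb1 stayed at −4.78.

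The test of the difference itself asks whether interferon-response cells stand apart from the remaining cells by a different amount in efferocytic libraries. Of 13106 genes, 52 passed (0.397%), 7 upward (0.0534%) and 45 downward (0.343%). The downward ones held 14 of 40 antiviral effectors (median log2 −0.74, against −0.08 for all genes), 2 of 16 transducers, 3 of 16 MHC class I genes, 1 of 8 feedback inhibitors, 1 of 13 GTPases and none of 15 sensors. The interferon-response cells of efferocytic libraries thus stood less far above their neighbours in these genes. Such a gap also depends on the remaining cells. There the antiviral effectors Oas3 (log2 0.81 ± 0.08) and Oasl1 (0.73 ± 0.10) were higher in efferocytic libraries, while Samhd1 (−0.58 ± 0.12) and Parp14 (−0.43 ± 0.09) were lower. Which side gave the smaller gaps was not tested. In the test of the difference, scaling to library totals moved the median of all genes from −0.08 to 0.04. Of 40 effectors, 2 were then lower, beside 9 of all 13106 genes (0.0687%). Without the cells of neutrophil markers 7 of 40 were lower, beside 22 of all 12980 genes (0.169%). Other alternatives called more genes. With the highest cell of each gene left out, 190 of all 12685 genes were lower and 49 higher.

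Irf7 was among them. Irf7 in interferon-response cells lay above the remaining cells by log2 2.82, 1.90, 3.43 and 2.15 in the 4 libraries, and both efferocytic ratios lay below both others. From non-efferocytic to efferocytic, Irf7 moved by log2 −0.41 in interferon-response and 0.51 in remaining cells of Experiment 1. In Experiment 2 it moved by −1.26 and 0.02. The difference between groups was −1.24 ± 0.16 (edgeR adjusted p = 0.00269), and it passed under every alternative run except the fit without the block. Isg15 (−0.73 ± 0.31, 0.638) and Usp18 (−0.64 ± 0.27, 0.616) did not pass. Ifit1bl1 (−1.91 ± 0.40), AW112010 (−1.57 ± 0.32), Slfn9 (−1.19 ± 0.25) and Parp11 (−1.17 ± 0.20) were further downward genes of at least 10 CPM with ties to interferon, beside Ly6c2, a marker of inflammatory monocytes, Clec4e and Saa3.

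Some of these values rested on single cells. Saa3, an acute phase protein, had 1306 UMIs in the interferon-response cells of the non-efferocytic library of Experiment 2, of which 50.9% were in 1 cell, and 32, 26 and 0 in the other libraries. Ly6c2 had 97, 2, 93 and 1 UMIs, of which 49.5% and 69.9% were in the highest cell of the non-efferocytic libraries. The summed level of the 5 monocyte markers was 78.9, 25.1, 111 and 6.08 CPM in the interferon-response cells and 68.1, 26.0, 76.96 and 15.9 CPM in the remaining cells, and its part in these values was not tested. Clec4e, a receptor for damaged cells, was at 14.4, 3.67, 39.2 and 1.52 CPM, with UMIs in 45, 18, 43 and 2 cells.

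In the other direction, 7 genes stood higher above the remaining cells, or less far below them, in efferocytic libraries. Ccl7, an attractant of monocytes, was at 6.08, 37.7, 2.32 and 80.6 CPM in interferon-response cells and at 10.6, 9.34, 9.93 and 14.6 CPM in the remaining cells (difference 3.24 ± 0.27, edgeR adjusted p = 1.23e-05). It had a UMI in 29, 15, 6 and 13 cells, and 78.2% of the UMIs of the efferocytic library of Experiment 1 were in 1 cell. Without the highest cell of each library it was at 5.49, 8.21, 1.74 and 49.4 CPM, and with the highest cell of each gene left out of each sum the difference was 2.10. Ccl2 behaved alike, with 240 of its 400 UMIs of that library in 1 cell, and it did not pass without the highest cells (0.26). Mmp12 (1.44 ± 0.29), a protease of macrophages, Atp6v0d2 (0.87 ± 0.17), Dok2 (0.80 ± 0.15), Anxa1 (0.73 ± 0.11) and Ctsk (0.61 ± 0.13) were the others. In the efferocytic library of Experiment 2 the highest cell held 21.1%, 10.5%, 12.3%, 15.8% and 62.6% of their UMIs, and Ctsk did not pass without the highest cells. Anxa1, an anti-inflammatory phospholipid-binding protein, was at 218 and 233 CPM in the non-efferocytic interferon-response cells, below the 393 and 467 CPM of their remaining cells, and at 394 and 511 CPM in the efferocytic ones, next to 441 and 497 CPM.

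**Figure D5:**
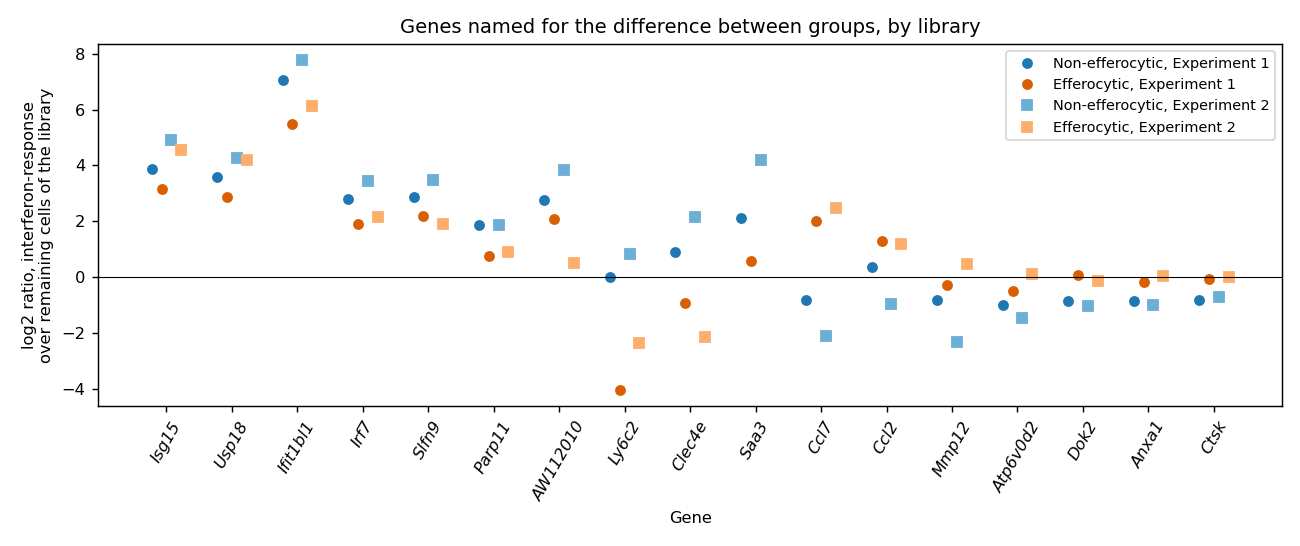
Log2 ratio of interferon-response over remaining cells of the same library for the genes named by the test of the difference between groups, with 1 point per library (Isg15 and Usp18 did not pass it). The efferocytic points of Irf7 (1.90 and 2.15) lie below the non-efferocytic ones (2.82 and 3.43), and those of Ccl7 lie above them; Saa3 has no point for the efferocytic library of Experiment 2, where it had 0 UMIs.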

How the data were processed

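UMI counts per gene and barcode were deposited by the authors as 10x matrices of 31053 features, 1 per library, made with Cell Ranger on mm10 (version 3.0.0 in the submitters' processing notes, 3.1.0 in the file headers of Experiment 2), and those notes also name Seurat 3.1. The matrices hold barcodes without cells, from which free RNA was read. The table of the authors' own comparisons (fold changes and p-values) was not used. The cells, the 7 genes and the gene lists were chosen with earlier results of these data known. Counts were summed per library and tested with edgeR 4.0.16 in R 4.3.3 (TMM, filterByExpr, quasi-likelihood F test, Benjamini-Hochberg adjustment over all genes tested, called under 0.05), with the library as a block, or the experiment where only interferon-response cells were compared. SE is the size of the log2 fold change over the square root of F.

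The same steps were tested on simulated data with 100 genes changed by log2 1 and 100 by log2 2. For interferon-response against remaining cells (12253 genes) 100 and 100 were found with 11 false calls. For efferocytic against non-efferocytic interferon-response cells (9896 genes) 89 and 100 were found with 12, and for the difference between groups (12978 genes) 94 and 100 with 12. These counts were drawn with 1 dispersion per comparison, 0.00698, 0.0126 and 0.00551 in that order. How the steps do with genes of unequal spread, UMIs mostly in 1 cell or cells chosen by a rule was not tested.

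Named genes were the 7 of the rule, Isg15, Irf7, Usp18 and Ifnb1, up to 4 called genes of each list with the largest change and at least 1 CPM, and the 10 largest rises and falls outside the lists with at least 10 CPM and 1 direction in all libraries. For the other comparisons they were the 8 largest rises and falls. Other genes named for their role (receptors, kinases, sensors and the like) were chosen after their values were seen. 1 gene is not reported here.

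Experiments are named in the labels, so they served as the pairing of libraries, and the differences between experiments in the 2 groups correlated at 0.324 over 7093 genes of the interferon-response cells. Scrublet's own threshold marked at most 0.0362% of a library's cells and so did not work. Doublets were kept, and leaving out the cells above the score that marks the top 6% (5.02% to 5.93% of a library, since cells tied at that score stayed) was an alternative, as were DESeq2 1.42.0, other scaling, filters, thresholds and libraries left out. A count of 0 was given a floor of 3 counts per library. Intervals and floors cover counting error only.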

Additional observations from a re-analysis of the deposited data

Results flagged for a closer look

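Of 59 genes whose 4 log2 ratios of interferon-response to remaining cells were examined, 2 had 1 library that stood apart by Dixon's test, which flags about 1 in 20 groups by chance. Tgtp2, a GTPase, had its highest ratio at 5.66, and Ngp, a neutrophil granule gene, at −0.78.

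The amount by which interferon-response cells stood apart from the remaining cells differed between efferocytic and non-efferocytic libraries (edgeR, adjusted p under 0.05) for 15 named genes. The interferon genes Irf7 (log2 −1.24), Ifit1bl1 (−1.91), AW112010 (−1.57), Slfn9 (−1.19) and Parp11 (−1.17) and the genes Ly6c2 (−4.13), Saa3 (−3.46) and Clec4e (−2.78) stood lower in efferocytic libraries. Ccl7 (3.24), Mmp12 (1.44), Ccl2 (1.19), Atp6v0d2 (0.87), Dok2 (0.80), Anxa1 (0.73) and Ctsk (0.61) stood higher.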

How the results depend on the processing

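The shares are those of single libraries, and each alternative but 1 left them lower in the efferocytic library of each experiment. The exception was detection of 3 genes with no minimum level (10.7%, 13.6%, 3.50% and 2.997%), and the intervals of Experiment 1 also overlapped at 2.5 and within 5 to 10 per 10000. In the order of libraries used above, they moved beyond counting error to 9.14%, 8.80%, 2.98% and 1.71% at 2.5 UMIs of the 7 genes per 10000 and to 3.79%, 1.85%, 1.42% and 0.345% at 10. With 4 genes required the first 3 moved to 5.53%, 3.82% and 1.78%, with the choice made on randomly drawn UMIs and values taken from the others to 5.33%, 4.02% and 1.89%, and with cells of at least 5000 UMIs thinned before the rule the first pair moved to 5.71% and 4.02%. With 2 genes required the non-efferocytic shares moved to 7.39% and 2.54%. That of Experiment 2 was 2.66% at 5000 UMIs per cell (also with cells thinned after the choice) and 2.57% under the cell calling rule of Cell Ranger.

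For interferon-response against remaining cells, 759 genes were called, 415 to 938 with 1 library left out (415 without the non-efferocytic library of Experiment 1) and 1223 at 10 per 10000. The share of calls that were higher was 72.3%, against 80.3% with library totals, 61.0% with no filter and 99% without the block (198 higher and 2 lower). For efferocytic against non-efferocytic interferon-response cells, 1586 genes were called, and 0 to 958 with 1 library left out: 277 without the non-efferocytic and 958 without the efferocytic library of Experiment 1, 445 without the non-efferocytic and 0 without the efferocytic library of Experiment 2. DESeq2 called 375, and edgeR 2593 at 2.5 and 596 at 10 per 10000, 880 with thinned cells and 687 within 5 to 10 per 10000. Leaving out a library there also drops the experiment term.

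For the difference between groups, 52 genes were called, 69 to 164 with 1 library left out (160 and 164 without the non-efferocytic and efferocytic libraries of Experiment 1, 149 without the efferocytic library of Experiment 2). Others were 34 (DESeq2), 13 (library totals), 226 (no filter), 22 (at most 5% mitochondrial UMIs), 97 and 159 (2.5 and 10 per 10000), 25 (choice on randomly drawn UMIs), 96 (thinned cells), 80 (highest doublet scores out), 27 (neutrophil-marker cells out) and 239 (highest cell of each gene out). The cause was not tested.

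Without the replicate block, edgeR called 200, 849 and 0 genes in the 3 comparisons, the last with 503 at an unadjusted p under 0.05, and DESeq2 with the block 34. Of the values of named genes under the alternatives, 5 turned sign where the main fit had passed the test, none of them past it in the alternative. Without neutrophil-marker cells these were Ngp (0.83) and Chil3 (0.80) against remaining cells and S100a8 (0.023) between groups. In the difference between groups Ccl2 stood at −0.99 with 2 genes required and Ctsk at −0.23 within 5 to 10 per 10000. Turns of sign in genes that passed in neither fit, such as Usp18 between groups within 5 to 10 per 10000, were not counted. The call was lost in 76 of 1318, 55 of 473 and 108 of 432 values of named genes under the alternatives.

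The efferocytic interferon-response cells of Experiment 2 numbered 66, and a count of 0 in them allows up to 2.28 CPM. Alternatives on detection without a level, doublets, shared barcodes, Experiment 2, score range, neutrophil markers and single cells were chosen after seeing the data.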
